A study of Mus musculus with 12 samples.

Results

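The Ifi200 family, also called the PYHIN family, is a set of interferon-inducible genes that lie side by side on mouse chromosome 1. The 9 members described here, Aim2, Ifi213, Ifi208, Ifi204, Mndal, Ifi211, Ifi203, Ifi202b and Ifi205, were taken by symbol from the deposited count table, where they are 9 of 21638 genes. The family was selected on the measured level of Ifi202b, which was already known to be high in the 3 libraries labelled Ezh2 ECKO, so the difference of Ifi202b in comparisons with those libraries is given as a description with no test. All 9 members averaged 10 or more counts across the 12 libraries and were tested, among 12577 genes in all. Ifi202b reached that average only through the libraries labelled Ezh2 ECKO.

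RNA was sequenced from cortical endothelial cells of adult mouse brain, sorted as CD31+/CD41-/CD45- cells, in 4 groups of 3 libraries. The WT group carries only the genotype label WT. The Hdac2 ECKO, Ezh2 ECKO and beta-catenin GOF groups carried Hdac2lox/lox, Ezh2lox/lox and Ctnnb1lox/lox alleles with Cdh5CreERT2, a Cre recombinase that tamoxifen activates in endothelium. Mutant mice received 5 doses of tamoxifen at 75 mg/kg, and brains were taken 2 months later. The labels do not say whether WT mice carried the Cre or received tamoxifen, nor give the strain, the sex, the age in weeks or the number of animals behind a library, so p-values measure the spread between these libraries.

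The proteins of this family pair a HIN domain, which binds DNA, with a pyrin domain, which recruits other proteins of innate immunity. AIM2 binds double-stranded DNA in the cytosol and assembles an inflammasome with the adaptor ASC, whereas the protein of Ifi202b has HIN domains but no pyrin domain and is known to restrain AIM2. The genes arose by duplication, respond to type I and type II interferon, and are best known from macrophages and lymphocytes. Ifi202b is also known as a gene whose expression differs widely between inbred mouse strains. Strain and genotype group cannot be told apart in these libraries, since no strain is named.

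In the sequences upstream of the genes 4 members formed 2 pairs of near copies, Ifi203 with Mndal and Ifi213 with Ifi208, which are shown so that each partner's values can be read beside the other's. RefSeq promoters on GRCm38.p6, each 300 bases long with 250 bases before the start of transcription and 50 after, were found for 8 of the 9 members. Ifi204 was not matched. The interferon-stimulated response element (ISRE) core was searched as GAAA, any 2 bases and GAAA again, and the gamma-activated site (GAS) as TTCNNNGAA, both on either strand. In the promoters below, lower case is background and capitals mark a match to one of these motifs. The Ifi202b promoter (chr1:173982795-173983094, minus strand) belongs to the member with the largest difference between groups, and its capitals are a GAS match.
Ifi202b: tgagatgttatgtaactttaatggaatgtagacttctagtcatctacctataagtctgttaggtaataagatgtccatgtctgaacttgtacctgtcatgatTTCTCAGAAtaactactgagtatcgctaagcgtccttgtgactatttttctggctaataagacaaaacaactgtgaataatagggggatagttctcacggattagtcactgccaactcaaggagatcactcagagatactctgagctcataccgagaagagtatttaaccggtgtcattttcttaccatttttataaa
The promoter of Ifi203 (chr1:173942443-173942742, minus strand), from the downstream of the 2 starts listed, is set beside that of Mndal (chr1:173880138-173880437, minus strand), the other abundant member. Capitals in both are the ISRE core.
Ifi203: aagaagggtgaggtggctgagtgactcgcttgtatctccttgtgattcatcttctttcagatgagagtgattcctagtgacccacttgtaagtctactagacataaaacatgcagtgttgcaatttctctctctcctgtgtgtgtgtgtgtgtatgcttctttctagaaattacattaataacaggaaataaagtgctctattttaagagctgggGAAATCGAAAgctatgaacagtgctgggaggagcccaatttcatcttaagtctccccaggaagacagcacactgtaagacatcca
Mndal: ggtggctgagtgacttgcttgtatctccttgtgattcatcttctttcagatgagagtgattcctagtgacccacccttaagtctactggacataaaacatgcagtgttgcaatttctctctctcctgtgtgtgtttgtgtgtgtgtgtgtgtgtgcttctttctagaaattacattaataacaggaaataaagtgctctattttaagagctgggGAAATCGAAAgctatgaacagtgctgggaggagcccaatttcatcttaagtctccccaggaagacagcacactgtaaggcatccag
These 2 promoters were 90.7% identical. The promoters of Ifi213 (chr1:173599223-173599522, minus strand) and Ifi208 (chr1:173673415-173673714, plus strand) were 89.5% identical, again with the ISRE core in capitals.
Ifi213: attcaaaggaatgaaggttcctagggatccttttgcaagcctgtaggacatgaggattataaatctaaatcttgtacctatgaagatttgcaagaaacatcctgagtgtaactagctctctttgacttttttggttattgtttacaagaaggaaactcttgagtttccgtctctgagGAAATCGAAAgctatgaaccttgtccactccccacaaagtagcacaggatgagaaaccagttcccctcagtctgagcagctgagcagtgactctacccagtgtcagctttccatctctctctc
Ifi208: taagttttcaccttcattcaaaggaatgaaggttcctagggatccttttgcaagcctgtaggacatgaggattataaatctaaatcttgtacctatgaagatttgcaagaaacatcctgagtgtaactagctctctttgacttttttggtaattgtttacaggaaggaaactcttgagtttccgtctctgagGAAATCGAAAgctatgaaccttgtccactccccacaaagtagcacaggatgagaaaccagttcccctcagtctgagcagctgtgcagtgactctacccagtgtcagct

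The Ifi202b promoter was 49.7% to 57.1% identical to those of the other members. This was not particular to it: apart from the near copies, pairs of member promoters lay between 46.2% and 57.4%. The ISRE core was present in promoters of 6 of the 8 members, Ifi203, Mndal, Ifi211, Ifi208, Ifi213 and Ifi205. Counted by promoter, some members having more than 1, it was in 7 of 10, against 3.44% of all 32851 promoters in the table. It began 35 bases upstream of the start in Ifi203, 36 in Mndal, 37 in Ifi211, 58 in Ifi208, 73 in Ifi213 and 134 in Ifi205. In these 6 promoters it sat within a longer shared stretch, GGAAATNGAAAGCTATGAAC, obtained by lining the 6 up on the core, which occurred in 7 promoters of the table in all. The remaining promoter belonged to Ifi206, another gene of the family. The GAS letters were found in 1 of the 10 member promoters, that of Ifi202b. This is near the 8.3% of all promoters that hold them. These matches describe letters in a window and do not show that a factor binds there.

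Depth was similar across the 12 libraries, from 24781070 to 36109975 counts, and 3 counts, taken as the floor of detection, equal 0.0792 to 0.118 CPM (counts per 1000000 counts of the scaled library). Pecam1, Cdh5, Cldn5 and the other endothelial markers were abundant in every library, at 20593 to 35028 CPM in sum. Counts of the targeted genes did not mark the groups. They sum reads over a whole gene, so they do not show whether the lox alleles recombined, which was not tested. Hdac2 averaged 96.5 ± 15.2 CPM in its knockout group and 129 ± 30.1 CPM in WT (SD, n = 3 each; edgeR adjusted p = 0.225), and Ctnnb1 in beta-catenin GOF differed from WT by −0.17 on the log2 scale (edgeR adjusted p = 0.962). Ezh2 was not lower in the libraries that carry its label, at 8.92 ± 3.36 CPM against 6.75 ± 3.52 CPM in WT (SD, n = 3 each, edgeR adjusted p = 0.615). The group is therefore called the Ezh2-labelled libraries throughout. The names of the other mutant groups rest on the labels as well.

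Within WT endothelium the family was dominated by Mndal. Levels of different genes were compared per length, as CPM per kilobase of the gene's length in the table (RPKM). Mndal, the mouse relative of the human myeloid nuclear differentiation antigen, stood at 14.9 ± 3.36 RPKM in WT (SD, n = 3), and Ifi203 followed at 3.46 ± 1.66 RPKM. Both gaps, from Mndal to Ifi203 and from Ifi203 to the next member, were larger than the spread between replicates. Ifi211 at 1.68 ± 0.85 RPKM, Aim2 at 1.61 ± 0.74 RPKM, Ifi213 at 1.01 ± 0.764 RPKM, Ifi204 at 0.757 ± 0.423 RPKM, Ifi208 at 0.731 ± 0.425 RPKM and Ifi205 at 0.335 ± 0.191 RPKM formed a low group in which no neighbours in the order differed by more than their SD. Ifi202b came last, at or under the floor in all 3 WT libraries.

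Mndal also led in Hdac2 ECKO, at 7.09 ± 1.79 RPKM, and in beta-catenin GOF, at 8.09 ± 5.39 RPKM (SD, n = 3 each). The order was different in the Ezh2-labelled libraries. There Ifi203 at 14.4 ± 3.43 RPKM and Mndal at 14.3 ± 9.84 RPKM could not be ranked, nor could Mndal and Ifi202b, which stood at 9.56 ± 2.21 RPKM. Ifi211 was below them at 3.68 ± 2.77 RPKM. At the low end Ifi213, at 0.132 ± 0.194 RPKM, and Ifi205, at 0.0918 ± 0.0479 RPKM, did not differ by more than their SD.

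**Figure D1:**
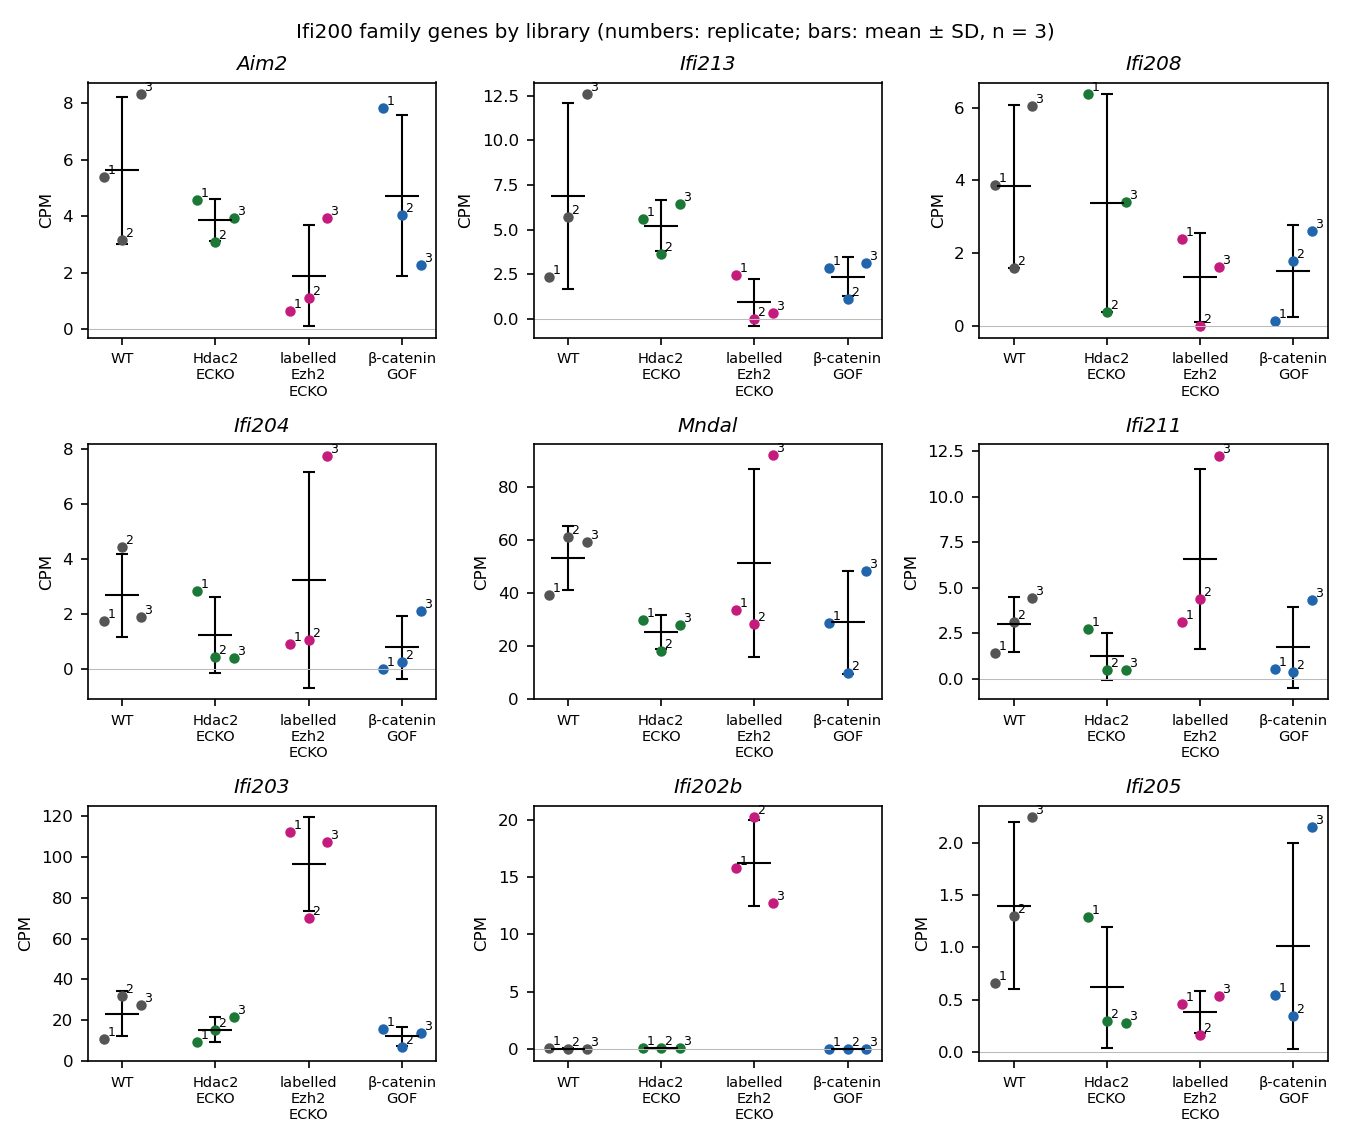
CPM (y axis, linear, separate scale for each gene) of the 9 members in the 12 libraries, by group (x axis), with points numbered by replicate and bars for mean ± SD (n = 3). Ifi202b lies between 12.7 and 20.2 CPM in the Ezh2-labelled libraries and at most 0.139 CPM elsewhere, and Ifi203 is above 70 CPM in those libraries and below 32 CPM elsewhere.

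Ifi202b (ENSMUSG00000026535.9, chromosome 1, 173962568 to 173982744, minus strand, GRCm38) was detected well above the floor in 1 group. Its counts in replicates 1, 2 and 3 were 487, 513 and 354 in the Ezh2-labelled libraries, or 15.8, 20.2 and 12.7 CPM. The counts were 2, 0 and 0 in WT, 2, 2 and 4 in Hdac2 ECKO, and 0, 0 and 2 in beta-catenin GOF. All 3 Ezh2-labelled libraries were thus far above the other 9, and they lay within 1.59-fold of each other. Against a floor of 3 counts in each library, the mean of 16.2 ± 3.76 CPM (SD, n = 3) was at least 159-fold higher than in WT and at least 181-fold higher than in beta-catenin GOF. If both mates of a pair were counted, 3 counts are fewer than 2 fragments. Hdac2 ECKO, with 1 library above the floor, had 8 counts in its 3 libraries together. No fold is given between WT, Hdac2 ECKO and beta-catenin GOF, where the gene was at or near the floor. No stretch of 75 bases of the Ifi202b transcript in the GENCODE annotation was shared with another annotated gene, Mndal transcripts that extend past 173880881 left out. In these sorted bulk samples fewer expressing cells and less RNA per cell cannot be told apart.

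Ifi203 (ENSMUSG00000039997.16, chromosome 1, 173920407 to 173942672, minus strand, GRCm38), the nearest neighbour of Ifi202b in the cluster and a nuclear protein gene with pyrin and HIN domains, was the other member with a high level in the Ezh2-labelled libraries. In replicates 1, 2 and 3 it stood at 112, 70.2 and 107 CPM there and at 10.6, 31.7 and 27.3 CPM in WT. It stood at 9.39, 15.0 and 21.7 CPM in Hdac2 ECKO and at 15.8, 6.89 and 13.6 CPM in beta-catenin GOF. The lowest Ezh2-labelled library was above the highest of the other 9, which overlapped one another. Against WT, Ifi203 rose by 2.06 on the log2 scale (standard error 0.43), or 4.16-fold, in all 3 Ezh2-labelled libraries (edgeR quasi-likelihood test with Benjamini-Hochberg adjustment, adjusted p = 0.0463). The threshold was an adjusted p of 0.05.

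That call lay close to the threshold. It was lost with library totals alone as the scale (adjusted p = 0.0509) and in a fit of WT and the Ezh2-labelled libraries alone (adjusted p = 0.0791), and held in the other 7 settings. Leaving out 1 library moved the adjusted p between 0.0116 and 0.160, with the change between 1.71 and 2.35 on the log2 scale. The call was lost without WT 1, without WT 2, and without the first or the third Ezh2-labelled library. In these fits only 2, 2, 4 and 7 of all genes passed. Without WT 3 and without the second Ezh2-labelled library, where the call held, 1138 and 2328 of all genes passed. Genes in the same of 5 length classes as Ifi203 had a median change of 0.17 on the log2 scale in this comparison. Of the 75-base stretches of its transcripts, 5.71% also occurred in another gene. This share leaves out GENCODE transcripts of Mndal that extend past 173880881 towards Ifi203.

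Ifi203 was also compared with the other mutants. Against the Ezh2-labelled libraries it was lower in beta-catenin GOF by a log2 fold change of −3.00 (standard error 0.45, edgeR-adjusted p = 0.0128), in 3 of 3 libraries, where the groups of 16.6% of all genes tested did not overlap. Leaving out 1 library changed this adjusted p to between 0.0176 and 0.101. The call was lost without the first Ezh2-labelled library and without each of the 3 beta-catenin GOF libraries in turn. In these fits 1, 4, 6 and 2 of all genes passed, against 731 and 9 without the second and the third Ezh2-labelled library. In Hdac2 ECKO against the Ezh2-labelled libraries the log2 fold change was −2.65 (standard error 0.44), again with no overlap (13.2% of all genes tested did not overlap), and missed the threshold (adjusted p = 0.066, edgeR). The call passed under 5 of 9 other settings and in no fit that left out 1 library, in which 1 to 3 of all genes passed. These comparisons share the Ezh2-labelled libraries with the comparison against WT. In Hdac2 ECKO and beta-catenin GOF against WT, Ifi203 differed by −0.59 (standard error 0.42, edgeR-adjusted p = 0.334) and −0.94 (standard error 0.42, edgeR-adjusted p = 0.801) on the log2 scale, with overlapping libraries.

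Mndal (ENSMUSG00000090272.8, chromosome 1, 173849126 to 173880881 in the count table, minus strand, GRCm38), whose promoter is the near copy of the Ifi203 promoter printed above, was not separated by group as Ifi203 was. In GENCODE this gene extends to 173942491, across Ifi211 and into Ifi203. Replicates 1, 2 and 3 stood at 39.5, 61.1 and 59.5 CPM in WT and at 33.8, 28.3 and 92.1 CPM in the Ezh2-labelled libraries. They stood at 30.1, 18.1 and 28.2 CPM in Hdac2 ECKO and at 28.9, 9.79 and 48.5 CPM in beta-catenin GOF. The Ezh2-labelled libraries straddled WT, with the third above and the other 2 below all WT libraries. The log2 fold change there was −0.05 (standard error 0.50, edgeR-adjusted p = 0.959), with a 95% interval of −1.03 to 0.92, which leaves room for changes of up to about that size either way. In Hdac2 ECKO all 3 libraries were below all 3 WT libraries, at a log2 fold change of −1.07 (standard error 0.50) that missed the threshold (adjusted p = 0.153, edgeR). This difference passed with no filter on low counts (adjusted p = 0.0108) and in a fit of WT and Hdac2 ECKO alone (adjusted p = 0.0376). Groups did not overlap for 37.8% of all genes tested in that comparison. In beta-catenin GOF the log2 fold change was −0.88 (standard error 0.50, edgeR-adjusted p = 0.887).

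The make-up of the family's counts followed from these levels. The 9 members summed to 65.6 to 122 CPM in WT and 125 to 239 CPM in the Ezh2-labelled libraries. In Hdac2 ECKO they summed to 41.5 to 65.0 CPM and in beta-catenin GOF to 24.6 to 78.7 CPM. Ifi203 held 22.2% ± 6.08 of the family's CPM in WT and 55.4% ± 10.2 in the Ezh2-labelled libraries (SD, n = 3 each). Mndal held 54.4% ± 5.77 and 27.0% ± 10.2 in the same groups. Ifi202b held 10.2% ± 5.46 in the Ezh2-labelled libraries, while the 6 remaining members together held 23.3% ± 5.95 in WT and 7.4% ± 3.18 there. Per length, the ratio of Ifi203 to Mndal was 0.144 to 0.278 in WT, 0.167 to 0.443 in Hdac2 ECKO, 0.150 to 0.377 in beta-catenin GOF and 0.624 to 1.78 in the Ezh2-labelled libraries. The shares and the ratio use the values of Ifi203 and Ifi202b given above and are no separate evidence.

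**Figure D2:**
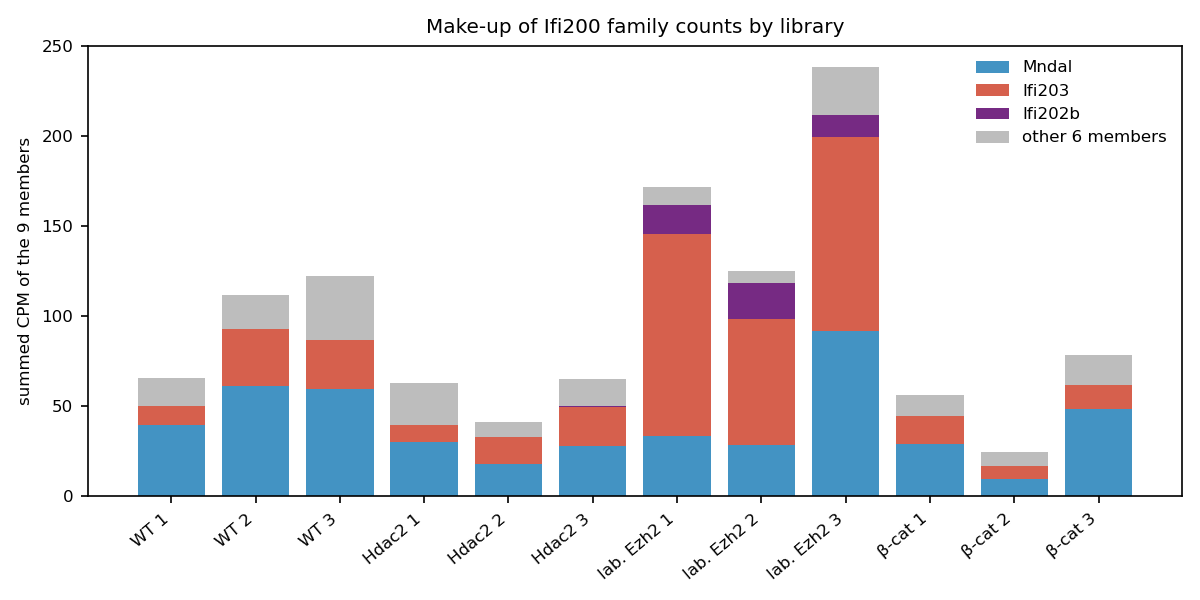
Summed CPM of the 9 members (y axis, from 0) in each of the 12 libraries (x axis; numbers are replicates, "lab. Ezh2" are the Ezh2-labelled libraries and β-cat those of beta-catenin GOF), divided into Mndal, Ifi203, Ifi202b and the other 6 members. Ifi203 makes up 45.0% to 65.3% of the bar in the Ezh2-labelled libraries and 16.1% to 28.3% in WT.

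Aim2 (ENSMUSG00000037860.15, chromosome 1, 173350879 to 173466040, plus strand), the cytosolic DNA sensor, was low in all groups. In replicates 1, 2 and 3 it stood at 5.38, 3.17 and 8.33 CPM in WT and 0.648, 1.10 and 3.95 CPM in the Ezh2-labelled libraries. It stood at 4.58, 3.10 and 3.95 CPM in Hdac2 ECKO and 7.85, 4.06 and 2.27 CPM in beta-catenin GOF. The Ezh2-labelled libraries included the 2 lowest of the 12, but the third of them was above the lowest WT library, and the log2 fold change against WT of −1.56 (standard error 0.65) missed the threshold (adjusted p = 0.157, edgeR). Aim2 overlaps the gene Cadm3 in the annotation, and whether strand was used in counting is not given in the sources used here.

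Ifi213 (ENSMUSG00000073491.11, chromosome 1, 173566283 to 173599274, minus strand) had the most negative change of any member in the Ezh2-labelled libraries. Its counts were 75, 0 and 8 in those libraries and 68, 180 and 354 in WT, replicates 1, 2 and 3. The counts were 147, 111 and 186 in Hdac2 ECKO and 83, 41 and 108 in beta-catenin GOF. The first Ezh2-labelled library, at 2.43 CPM, was level with the lowest WT library, at 2.36 CPM, so the groups overlapped, while the other 2 were below all remaining libraries. The log2 fold change against WT of −2.90 (standard error 1.01) missed the threshold (adjusted p = 0.108, edgeR). It passed under 4 of 9 other settings, with adjusted p = 0.0236 by DESeq2. All Hdac2 ECKO libraries were above all Ezh2-labelled libraries, at a log2 fold change of 2.50 (standard error 1.00, edgeR-adjusted p = 0.556). Groups did not overlap for 13.2% of all genes tested there.

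Ifi208 (chromosome 1, 173673675 to 173698395, plus strand), whose promoter is the near copy of the Ifi213 promoter, was scattered within each group. It stood at 3.89, 1.58 and 6.05 CPM in WT and 2.40, 0 and 1.62 CPM in the Ezh2-labelled libraries, where the second library had no count of either Ifi208 or Ifi213. It stood at 6.36, 0.392 and 3.40 CPM in Hdac2 ECKO and 0.136, 1.79 and 2.61 CPM in beta-catenin GOF. The log2 fold changes against WT were −1.51 in the Ezh2-labelled libraries, −0.18 in Hdac2 ECKO and −1.34 in beta-catenin GOF, all short of the threshold. Of the 75-base stretches of Ifi208, 9.04% also occurred in Ifi213, so reads could have been divided between this pair.

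Ifi204 (chromosome 1, 173747293 to 173766943, minus strand), a DNA-binding member often set beside human IFI16, was likewise spread widely within groups. It stood at 1.77, 4.43 and 1.89 CPM in WT and 0.908, 1.06 and 7.76 CPM in the Ezh2-labelled libraries. It stood at 2.84, 0.457 and 0.416 CPM in Hdac2 ECKO and 0, 0.264 and 2.12 CPM in beta-catenin GOF. The third Ezh2-labelled library was the highest of the 12, and that same library was highest for Mndal and Ifi211. Against WT the log2 fold change was 0.26 (standard error 1.21) in the Ezh2-labelled libraries, and turned to −1.47 without that library. It was −1.13 in Hdac2 ECKO and −1.75 in beta-catenin GOF, and all 3 values fell short of the threshold. Of the 75-base stretches of Ifi204, 13.2% also occurred in other members, with 11.3% in Ifi211, and of those of Mndal 4.69% occurred in Ifi211. Reads could therefore have been divided among these genes.

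Ifi211 (chromosome 1, 173896345 to 173913046, minus strand) lies between Mndal and Ifi203. It stood at 1.42, 3.10 and 4.45 CPM in WT and 3.11, 4.37 and 12.3 CPM in the Ezh2-labelled libraries. It stood at 2.73, 0.457 and 0.485 CPM in Hdac2 ECKO and 0.546, 0.343 and 4.30 CPM in beta-catenin GOF. The Ezh2-labelled libraries overlapped WT, at a log2 fold change of 1.14 (standard error 0.92, edgeR-adjusted p = 0.460), and were above all Hdac2 ECKO libraries, at −2.43 for Hdac2 ECKO against them (standard error 0.96, edgeR-adjusted p = 0.556). Groups did not overlap for 13.2% of all genes tested in the latter comparison. Of the 75-base stretches of Ifi211, 63.6% also occurred in other members, most of them in Ifi205, so its counts are uncertain.

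Ifi205 (chromosome 1, 174011998 to 174031810, minus strand) was the member with the fewest counts apart from Ifi202b outside its group. Its counts were 19, 41 and 63 in WT, 14, 4 and 15 in the Ezh2-labelled libraries, 34, 9 and 8 in Hdac2 ECKO and 16, 13 and 74 in beta-catenin GOF. At 0.157 to 0.539 CPM, the 3 Ezh2-labelled libraries were below the 3 WT libraries, at 0.659 to 2.24 CPM, where 22% of all genes tested did not overlap. The log2 fold change of −1.85 (standard error 1.04) missed the threshold (adjusted p = 0.279, edgeR). Of the 75-base stretches of Ifi205, 16.6% also occurred in Ifi211.

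Read over the family, no member passed in Hdac2 ECKO against WT or in beta-catenin GOF against WT. Ifi202b passed the count filter only through the Ezh2-labelled libraries, so it is left out of the counts that follow. In Hdac2 ECKO, 0 of the other 8 members passed with edgeR, with DESeq2 or with limma. With DESeq2 2553 of all genes passed, and with limma 1706 and 1712 at pseudocounts of 0.5 and 1 CPM. With edgeR 9.2% of all genes passed. An unadjusted p under 0.05 was found for 0 of these members, and the share of all genes under it was not counted. The 8 members other than Ifi202b all had negative log2 fold changes, with a median of −0.83 against 0.10 over all genes tested. Among genes of the same of 5 length classes the median was −0.33 for Aim2, Ifi204 and Mndal and −0.52 for Ifi211. It was 0.32 for Ifi213, Ifi208 and Ifi203 and 0.09 for Ifi205. Markers of pericytes and smooth muscle were higher in the same comparison, with 4 of 9 called (Rgs5, Cspg4, Myh11 and Pdgfrb), a list median of 2.52 and summed levels of 116 to 311 CPM against 57.2 to 117 CPM in WT, and their part in the members' values was not tested. In beta-catenin GOF, 0 of the same 8 members passed with any of these tools, where 38 of all genes passed with DESeq2 and 6 and 7 with limma. With edgeR 0% of all genes passed. Of these members 1, Ifi203, had an unadjusted p under 0.05, with the share of all genes again not counted. The 8 members again all had negative log2 fold changes, with a median of −0.91 against 0.01 over all genes, and the pericyte and smooth muscle markers summed to 105 to 370.3 CPM with none called. Both comparisons use the same 3 WT libraries.

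In the Ezh2-labelled libraries against WT, the comparison in which the family was chosen, Ifi203 was the 1 of 8 members that passed, where 1.03% of all genes passed, and nothing is read from that count. Of these 8 members 3 had positive and 5 negative log2 fold changes, and their median was −0.78 against 0.05 over all genes. Groups did not overlap for Ifi203 and Ifi205, while 22% of all genes tested did not overlap. Between mutants, Ifi203 was also the 1 of 8 that passed in beta-catenin GOF against the Ezh2-labelled libraries, where 0.0636% of all genes passed. The family was chosen on those libraries, so nothing is read from this count either. With edgeR, 0 of 8 passed in Hdac2 ECKO against those libraries, where 0.0239% of all genes passed. There 3 had an unadjusted p under 0.05, and the share of all genes under it was not counted. In that comparison 1, Ifi203, passed with DESeq2 (98 of all genes passed) and with limma (11 of all genes). Between beta-catenin GOF and Hdac2 ECKO 0 of 8 passed with edgeR, with DESeq2 (621 of all genes passed) or with limma (11 of all genes at either pseudocount). With edgeR 0.0716% of all genes passed. An unadjusted p under 0.05 was found for 0 of the 8, with the share of all genes not counted.

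Along the chromosome the differences in the Ezh2-labelled libraries were not uniform. The cluster spans 681 kb, from 173350879 to 174031810, with Ifi202b and Ifi203 adjacent near its distal end. Ifi205, on the other side of Ifi202b, had a change of opposite sign to that of Ifi203, and Aim2, Ifi213 and Ifi208, at the far end, had negative values. Within 500 kb of the outermost members lay 27 other genes, of which 2 were tested, Ackr1 and Cadm3. Ackr1, an atypical chemokine receptor of venular endothelium, stood at 16.3 ± 14.6 CPM in the Ezh2-labelled libraries and 2.24 ± 2.57 CPM in WT (SD, n = 3 each), and the log2 fold change of 2.85 (standard error 1.41) missed the threshold (adjusted p = 0.224, edgeR). Cadm3, a cell adhesion gene that overlaps both Ackr1 and Aim2, had a log2 fold change of 2.01 (standard error 1.36, edgeR-adjusted p = 0.370). Both genes had higher values in the other mutants too: the log2 fold changes of Ackr1 were 4.93 in Hdac2 ECKO (69.1 ± 74.8 CPM; adjusted p = 0.0536, edgeR) and 4.92 in beta-catenin GOF (68.4 ± 105.0 CPM; adjusted p = 0.628, edgeR). Those of Cadm3 were 3.97 (adjusted p = 0.0766, edgeR) and 4.14 (adjusted p = 0.703, edgeR), so neither gene passed in any mutant. Of 4 further family genes in the cluster, Ifi206, Ifi207, Ifi209 and Ifi214, none reached a mean count of 10, and their highest count in any library was 26, for Ifi207 in WT 1.

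**Figure D3:**
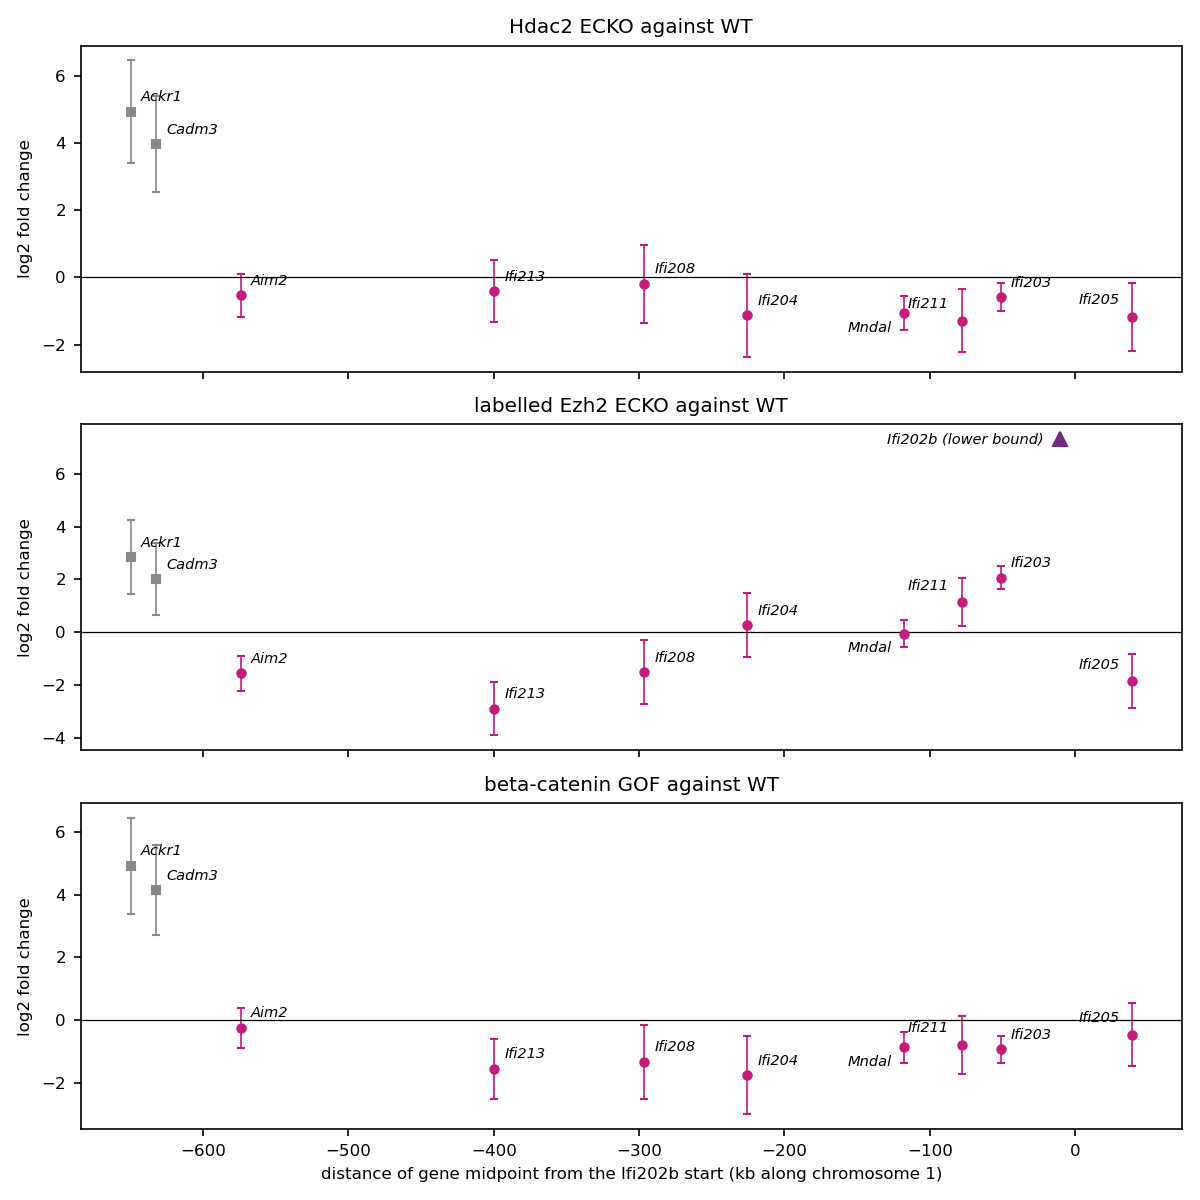
Log2 fold change against WT (y axis, a separate scale for each panel) of the members and the 2 tested neighbours (grey squares) by distance of the gene's midpoint from the start of Ifi202b (x axis, kb), one panel for each mutant group; bars are ± SE from edgeR, and the triangle is the lower bound for Ifi202b. In the panel of the Ezh2-labelled libraries, Ifi203 at 2.06 stands next to Ifi202b, and Ifi205 on its other side is at −1.85.

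Interferon genes outside the cluster are given beside the members, from 3 lists in which no gene rose in any mutant against WT. The lists were chosen with earlier results of these data known. Of 16 tested interferon receptors, STATs and regulators, 4 fell in the Ezh2-labelled libraries against WT, with log2 fold changes of −2.52 for Irf7, −2.23 for Irf1, −2.82 for Socs1 and −1.26 for Usp18 (edgeR adjusted p from 0.036 to 0.0476). Irf7 and Irf1 are transcription factors of the interferon response, and Socs1 and Usp18 dampen interferon signalling. The list's median was −0.72. Of 28 tested type I interferon-stimulated genes 3 fell, with log2 fold changes of −2.04 for Ifit3, −1.94 for Ifit3b and −1.80 for Oasl2, and the list median was −0.63. Ifit3 and Ifit3b are near-identical copies, between which reads could have been divided. Of 26 genes for interferon-gamma induced GTPases and MHC 1 fell, the GTPase gene Igtp with a log2 fold change of −4.06, and the list median was −2.24. Each of these 8 calls held in 2 of the 6 fits that left out a library, in which 2, 2, 4, 7, 1138 and 2328 of all genes passed. Among the most abundant genes, Ifitm3, which restricts virus entry, had a log2 fold change of −0.22 and B2m, the light chain of MHC class I, of 0.00, and neither passed.

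These counts stand beside 1.03% of all genes that passed in this comparison. In Hdac2 ECKO, where 9.2% of all genes passed, 5 of 16, 9 of 28 and 9 of 26 genes of these lists fell, with medians of −0.76, −0.73 and −1.83. In beta-catenin GOF none of them passed with edgeR, where no gene at all passed, and the medians were −0.62, −0.52 and −2.18. All 3 mutants share the WT libraries, and in the mean log2 CPM of each of these lists every WT library was above every mutant library, by as little as 5.92 against 5.89 for the type I list. In summed CPM, which the most abundant genes set, the groups overlapped: WT reached down to 4729 for the type I list, against 5036 to 6111 in beta-catenin GOF, and to 10059 for the gamma-induced list, against 15413 to 19298 in the Ezh2-labelled libraries. WT 2 stood apart, at 8.54 for the gamma-induced list against 5.77 and 6.17 in WT 1 and WT 3 and 4.81 to 5.57 in the mutants. Ifi203 in WT 2, at 31.7 CPM, was the highest outside the Ezh2-labelled libraries, and without WT 2 its change against WT was 2.35 on the log2 scale (edgeR adjusted p = 0.153). The part of these interferon-gene levels in the values of the members was not tested.

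**Figure D4:**
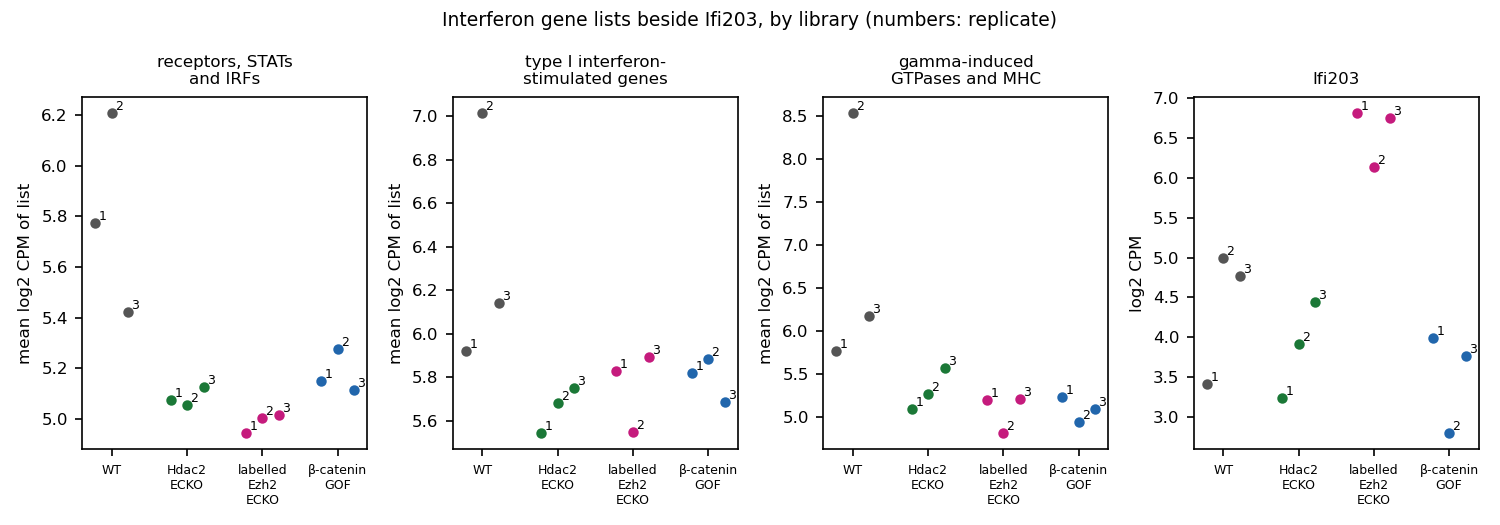
Mean log2 CPM of 3 interferon gene lists and log2 CPM of Ifi203 (y axes, separate scales) in each library by group (x axis; points numbered by replicate). For the mean log2 CPM of the lists all 3 WT libraries lie above all mutant libraries, with WT 2 highest, whereas for Ifi203 the 3 Ezh2-labelled libraries are highest.

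Genes that act with Aim2 and with the other DNA-binding members were examined as a list of DNA sensors and inflammasome components. Of 22 tested, 1 rose and none fell in the Ezh2-labelled libraries against WT, where 1.03% of all genes passed. It was Dhx9, a helicase that binds nucleic acids, with a log2 fold change of 1.29 (edgeR adjusted p = 0.0448). The call held in 2 of 6 fits that left out a library, in which 2 to 2328 of all genes passed. Pycard, which encodes the adaptor ASC, stood at 14.8 ± 6.08 CPM in the Ezh2-labelled libraries and 15.0 ± 5.76 CPM in WT (SD, n = 3 each, edgeR adjusted p = 0.985). Casp1, the inflammasome protease, stood at 7.18 ± 4.62 and 8.67 ± 1.94 CPM (SD, n = 3 each; edgeR adjusted p = 0.750). In Hdac2 ECKO 1 gene of the 22 rose and 2 fell, beside 9.2% of all genes that passed, and in beta-catenin GOF none passed with edgeR. The list medians were −0.34, −0.30 and −0.27 in the Ezh2-labelled libraries, Hdac2 ECKO and beta-catenin GOF. Pycard and Casp1 were named after their values were seen.

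Since the family is best known from leukocytes, markers of such cells are given beside it. The 12 markers of leukocytes other than microglia summed to 14.5 to 32.4 CPM in WT, 1.87 to 21.5 in Hdac2 ECKO, 3.25 to 4.43 in beta-catenin GOF and 0.389 to 152 in the Ezh2-labelled libraries. The highest value came from the second of these, which had 2014 counts of S100a8 and 1764 of S100a9, both neutrophil genes. The part of these cells in the values of Ifi202b and Ifi203 was not tested. Ptprc, which encodes CD45, had 3, 4 and 12 counts in the Ezh2-labelled libraries, and Cd53, another leukocyte surface gene, was at 0 in all 9 mutant libraries and at 60, 76 and 80 counts in WT. Cd3e was at 0 in 10 of the 12 libraries. The 15 markers of microglia and macrophages summed to 82.2 to 109 CPM in WT, 46.7 to 64.4 in Hdac2 ECKO, 58.6 to 86.8 in beta-catenin GOF and 53.0 to 118 in the Ezh2-labelled libraries, and their defining genes Tmem119 and Cx3cr1 were at 0 in 10 and 8 of the 12 libraries. Haemoglobin and platelet genes summed to 36128 to 61400 CPM in WT, 400.2 to 21706 in Hdac2 ECKO, 512 to 35379 in beta-catenin GOF and 2521 to 6694 in the Ezh2-labelled libraries, and the part of this difference in the members' values was not tested.

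The genes whose log2 CPM over the 12 libraries was most like that of Ifi202b were sought among tested genes outside the family. They were Psmg2 (Pearson r = 0.94), Gdpd3 (r = 0.90), Uhrf1 (r = 0.87), 1110059E24Rik (r = 0.86) and Mrpl35 (r = 0.86), none of them on chromosome 1. Gdpd3, a lipid phosphodiesterase gene, stood at 31.4 ± 24.8 CPM in the Ezh2-labelled libraries and 1.90 ± 1.27 CPM in WT, and Psmg2, a proteasome assembly chaperone gene, at 191 ± 25.3 and 91.3 ± 7.31 CPM (SD, n = 3 each). Among the members, Ifi203 was the most like Ifi202b, at r = 0.85, followed by Ifi211 at r = 0.54, while Aim2 and Ifi213 stood at r = −0.72 and −0.73. For Mndal, the most abundant of the other members per length, the most like genes were Ccnc (r = 0.89), Ola1 (r = 0.85), Shld2 (r = 0.83), Gm42669 (r = 0.83) and Cdk19 (r = 0.80). These coefficients describe 12 libraries that share 4 groups, and for Ifi202b they rest on the contrast of 1 group with the other 3.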

How the data were processed

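The deposited table gives 1 value per gene and library, and its title calls the values normalized. They were whole-number counts with different totals, and 79.5% to 84.0% of values from 10 to 50 were even, so the deposited values were treated as raw counts. The cause of the even excess was not tested. Per the submitters' processing notes, FastQC, cutadapt, STAR, featureCounts, DESeq2 and mm10 were used. Versions, the annotation and the strand setting are not given in the sources used here. The kit was SMART-Seq v4 PLUS, with paired reads, per the labels' protocols.

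Groups came from the sample titles. Genes averaging 10 or more counts were tested with edgeR 4.0.16 (R 4.3.3; quasi-likelihood F test, TMM scaling, 1 model over 12 libraries), with Benjamini-Hochberg adjustment over 12577 genes and a threshold of 0.05. Standard errors were derived from F. CPM are counts per 1000000 of the TMM-scaled total, and RPKM divide them by the table's gene length. DESeq2 1.42.0, limma 3.58.1 (pseudocounts of 0.5 and 1 CPM), other scalings and filters, the replicate block and leaving out each library were alternatives. Reads carry no molecular identifiers, so a floor of 3 counts covers counting error only. The script was tested on simulated counts.

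The members and lists were chosen with earlier results of these data known. Named genes were the 9 members, the targeted genes, family genes and tested neighbours within 500 kb, list genes past the threshold (up to 6) or among the 3 most abundant, and the 5 genes most like Ifi202b and Mndal. Positions are on GRCm38, counted from 1. Shared stretches of 75 bases were counted on GENCODE transcripts, without those of Mndal that extend past 173880881.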

Additional observations from a re-analysis of the deposited data

Results flagged for a closer look

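Ifi203 differed between 2 mutants under the test of that difference itself: the log2 fold change of beta-catenin GOF against the Ezh2-labelled libraries was −3.00 (edgeR adjusted p = 0.0128), with all 3 beta-catenin GOF libraries, at 6.89 to 15.8 CPM, below all 3 Ezh2-labelled libraries, at 70.2 to 112 CPM. Against WT, the log2 fold changes of Ifi203 in these groups were −0.94 and 2.06. Of the 6 fits that left out 1 library, 2 kept the call, and 1 to 731 of all genes passed in these fits. The family was chosen on the level of Ifi202b in the Ezh2-labelled libraries, which this comparison includes.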

How the results depend on the processing

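Ifi202b is left out of these counts, since it passed the count filter only through the Ezh2-labelled libraries. Numbers in brackets are those of all genes that passed. Of the other 8 members 1, Ifi203, passed in those libraries against WT (129). With library totals alone (30) or in a fit of the 2 groups only (17), 0 passed. With no filter (1367), with DESeq2 (1280) and with limma at either pseudocount (343 and 348), 2 passed, Ifi203 and Ifi213. When a library was left out, 0 to 1 passed (2 to 2328). In Hdac2 ECKO against WT 0 passed (1157), but 1 with no filter (2279) and 1 in the fit of 2 groups (1466), Mndal in both. In Hdac2 ECKO against the Ezh2-labelled libraries 0 passed (3), against 3 with no filter (199). There 1, Ifi203, passed with a mean count of 50 or more (4), with DESeq2 (98) and with limma at either pseudocount (11 each). In beta-catenin GOF against the Ezh2-labelled libraries 1 passed (8), and 0 to 1 when a library was left out (1 to 731). The cause was not tested. Whether the replicate numbers pair the libraries is not settled by the correlations of same-numbered libraries. They were above 0.1 throughout in no comparison, and 0.10, 0.27 and 0.06 in Hdac2 ECKO against the Ezh2-labelled libraries. With the replicate block the counts of members were 0, 1 and 0 in Hdac2 ECKO, the Ezh2-labelled libraries and beta-catenin GOF against WT and 0, 0 and 1 between mutants, as without it. Over all genes, the number that passed against WT rose from 1157 to 1832 in Hdac2 ECKO and from 129 to 536 in the Ezh2-labelled libraries. It stayed at 0 in beta-catenin GOF.

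Of 488 alternative values of members' changes, 447 kept direction and call, 13 passed that had not, 10 no longer passed and 18 changed sign, none of these called. On the log2 scale, library totals alone gave 0.032 for Ifi208 in Hdac2 ECKO against WT and 0.042 for Mndal in the Ezh2-labelled libraries against WT. Ifi204 in the latter comparison was at −0.19 and −0.11 under limma with 0.5 and 1 CPM added and −0.61 with the replicate block, which also gave −0.23 for Ifi211 in beta-catenin GOF against Hdac2 ECKO. Leaving out a library gave −0.81 to 0.37 for Ifi213 and −1.05 to 0.31 for Ifi208 in Hdac2 ECKO against WT, −1.47 to 0.82 for Ifi204 and −0.79 to 0.24 for Mndal in the Ezh2-labelled libraries against WT, −0.83 to 0.14 for Aim2 and −1.65 to 0.049 for Ifi205 in beta-catenin GOF against WT, and −1.45 to 1.88 for Ifi211 in beta-catenin GOF against Hdac2 ECKO. Below about 5 CPM, as in Ifi204, Ifi205, Ifi208 and Ifi211, single libraries set the sign of several changes.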

Other observations

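In the Ezh2-labelled libraries against WT, where 1.03% of all genes tested passed, 1 of 6 tested genes outside the family passed within 1 Mb on either side of the cluster (16.7%, Dusp23) and 2 of 25 within 2 Mb (8%, Dusp23 and Pex19). Within 5 Mb the same 2 genes of 64 passed (3.12%), and within 10 Mb 3 of 130 (2.31%). In Hdac2 ECKO against WT 1 of 6, 5 of 25, 10 of 64 and 18 of 130 passed in the same windows (16.7%, 20%, 15.6% and 13.8%), against 9.2% of all genes. Dusp23, a phosphatase gene, and Pex19, a peroxisome import gene, were named after their values were seen.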
